A study of Bos taurus
Mus musculus with 10 samples.

Results

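The levels of 10 imprinted genes of cattle were followed in bovine embryonic stem cells that had lost the Wnt inhibitor IWR-1 from their medium for 1 day, or had kept it. The genes were H19, IGF2, IGF2R, MEG3, PEG3, PEG10, MEST, PLAGL1, SNRPN and NNAT, taken by symbol from a list of well-known imprinted genes, and all 10 were found among the 27590 genes of the bovine table. All 10 also passed the filter on low values, which kept 18506 genes with a normalised read count of at least 10 in at least 5 libraries. The stem cells were wild type, came from blastocysts of day 7.5 and were kept as 5 numbered lines, 1, 2, 4, 8 and 11. Each line was split over 2 wells, of which 1 received mTeSR1-based medium without IWR-1 (IWRR, 5 wells) and the other the same medium with 2.5 µM IWR-1 (IWR, 5 wells). All 10 wells also held feeders, CD-1 mouse embryonic fibroblasts (E13.5) made unable to divide by mitomycin C, so that RNA of 2 species was sequenced together and counted separately. The labels do not say whether each line came from a blastocyst of its own, and a line had 1 well per medium, so p-values measure the spread between these wells.

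Through DNA methylation marks set in the egg or the sperm, imprinted genes are transcribed mainly from a single parental allele. Many of them control fetal growth and the placenta, and they lie in clusters under shared control regions. Loss of these marks is a known problem of embryo culture and of cultured pluripotent cells, and in cattle changes at IGF2R and at the IGF2 and H19 region are known from overgrown calves after embryo culture. The tables hold total RNA per gene and no allele, so imprinting itself was not measured here.

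The libraries held 49418754 to 64345738 recovered bovine reads without IWR-1 and 48064953 to 62092339 with it. The members were covered by 31 to 93193 reads per library, with the lowest counts in H19 and PLAGL1. Levels are given as normalised read counts, that is reads divided by a size factor per library, which are not corrected for gene length and are compared here only between wells and never between genes. Fold changes and line differences were computed on log2(value + 1), a scale that understates the changes of low genes. In these bulk libraries, fewer cells of a type and less RNA per cell cannot be told apart.

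The levels of all 10 genes followed the stem cell line far more than the medium. The moderated F test of limma, which sets differences between the 5 lines against the spread left after line and medium, called all 10 members at a Benjamini-Hochberg adjusted p under 0.05, where 66.5% of all tested genes were called. The line took 95.5% to 99.4% of the sum of squares of the members' log2 values (median 97.1%), against a median of 84.5% over all tested genes. The medium took 0.0172% to 2.81% of it (median 0.582%), against a median of 1.71% over all tested genes. The order of the 5 lines was the same in both media for IGF2R, MEG3, MEST and NNAT, 4 of the 10, against 15.4% of all tested genes.

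**Figure D1:**
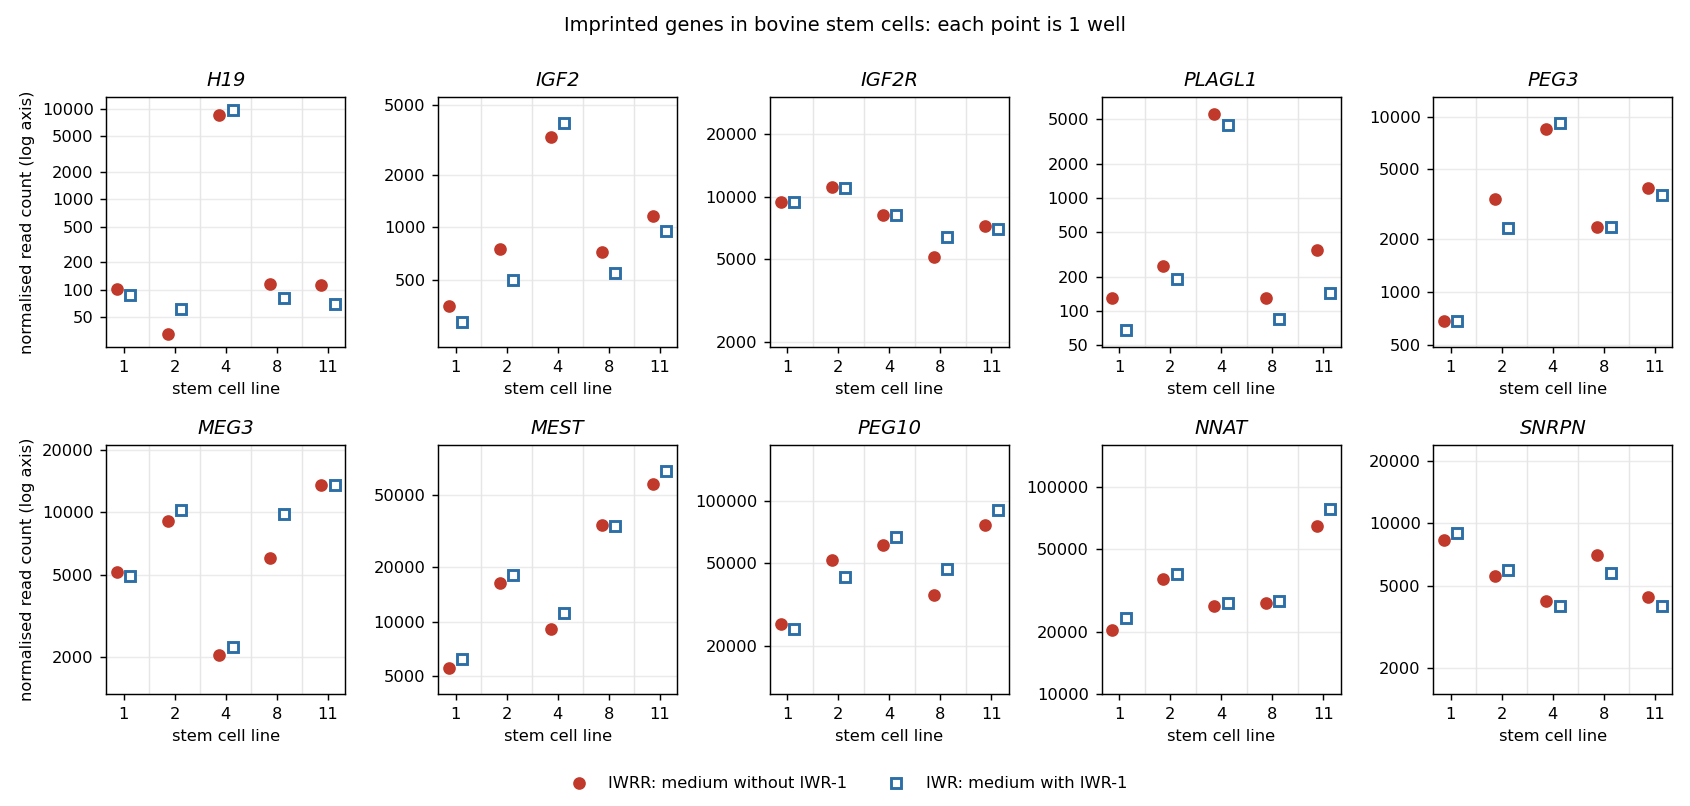
Normalised read counts on a log axis for each imprinted gene in the 5 lines, with 1 point per well, filled circles for medium without IWR-1 and open squares for medium with it. Line 4 is far above the other lines for H19 (8684 without and 9718 with IWR-1) and PLAGL1 (5623 and 4479), the 2 genes whose wells of a line also differ most (median 0.52 and 0.63 on the log2 scale).

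H19 and IGF2, which share a control region in mammals, were both highest in line 4. H19 is a non-coding RNA expressed from the maternal allele, and IGF2 encodes a fetal growth factor expressed from the paternal allele. H19 stood at 101, 32.3, 8684, 116 and 113 in lines 1, 2, 4, 8 and 11 without IWR-1, and at 87.1, 60.9, 9718, 80.6 and 69.9 with it. Line 4 thus lay apart in both media, while the wells of lines 8, 1 and 11 overlapped. Line 2 was lowest in both media, as for 7.75% of all tested genes. The means of the highest and lowest line differed by 7.66 on the log2 scale (limma F test, adjusted p = 1.33e-07). Without line 4 the range was 1.10 and H19 was no longer called (limma adjusted p = 0.0689), the only member to lose its call in this way.

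IGF2 had a smaller but similar spread. It was at 352, 755, 3291, 721 and 1159.7 in lines 1, 2, 4, 8 and 11 without IWR-1, and at 289, 502, 3980.4, 550.1 and 949 with it. Line 4 was highest and line 1 lowest in both media, line 11 was second, and the wells of lines 8 and 2 overlapped. The range of line means was 3.50 on the log2 scale (limma F test, adjusted p = 6.81e-07) and 1.72 without line 4, where the call held (limma adjusted p = 5.87e-05).

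PLAGL1 and PEG3 were the other 2 members that were highest in line 4 in both media. PLAGL1, a zinc-finger transcription factor that in mouse regulates a network of other imprinted genes, stood at 131, 252, 5623, 132 and 351 without IWR-1, and at 67.8, 192, 4479, 85.2 and 145 with it (lines 1, 2, 4, 8 and 11). Line 4 lay far above the other lines in both media. The wells of lines 11 and 2 overlapped, as did those of lines 8 and 1. The range was 5.72 on the log2 scale, or 1.25 without line 4, and was called both times (limma F test, adjusted p = 8.02e-08 and 0.00292).

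PEG3 encodes a zinc-finger protein expressed from the paternal allele. Its level was 679, 3392, 8567, 2344 and 3913 without IWR-1, against 678, 2316, 9247, 2354 and 3593 with it, in lines 1, 2, 4, 8 and 11. Line 1 was lowest in both media by a wide margin, and the wells of lines 2 and 8 overlapped. The range of 3.71 on the log2 scale was 1.92 without line 1 and 2.46 without line 4 (limma F test, adjusted p = 1.45e-07 with all lines and 5.43e-06 without line 4). With 4 of 10 members highest in line 4, the share may be read beside the 19.1% of all tested genes that were highest in it in both media.

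MEST, MEG3, PEG10 and NNAT were highest in line 11 in both media, where 10% of all tested genes were. MEST, also called PEG1, encodes a hydrolase-like protein of the endoplasmic reticulum. It was at 5564, 16395, 9139, 34437.5 and 57621 without IWR-1, against 6207, 18049, 11138, 33867 and 67967 with it, in lines 1, 2, 4, 8 and 11. No wells of neighbouring lines overlapped. It had the highest F value of the 10 members (limma adjusted p = 1.70e-08), with a range of 3.41 on the log2 scale against a median difference of 0.16 between the wells of a line.

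MEG3, a non-coding RNA expressed from the maternal allele, had its lowest level in line 4, the opposite of H19. It was at 5163, 9093, 2057, 6011 and 13518 without IWR-1, and at 4901, 10191, 2228, 9827 and 13563 with it, in lines 1, 2, 4, 8 and 11. It was the only member that was lowest in line 4 in both media, where 18.4% of all tested genes were. The wells of lines 2 and 8 overlapped, and MEG3 differed by 0.71 on the log2 scale between the wells of line 8. The range of line means was 2.66 (limma F test, adjusted p = 1.68e-06) and 1.43 without line 4 (adjusted p = 0.00064).

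PEG10, a gene derived from a retrotransposon and needed for the placenta in mouse, was at 25657, 51719.8, 61498, 35120.3 and 76835 without IWR-1. With IWR-1 it was at 24079.8, 42829.6, 67270.3, 47112.5 and 90519.6, in the same order of lines 1, 2, 4, 8 and 11. Lines 11 and 4 were the highest and line 1 the lowest in both media, with an overlap of the wells of lines 2 and 8. NNAT, or neuronatin, encodes a small membrane protein of the endoplasmic reticulum; it stood at 20293, 35885.5, 26451, 27455 and 64327 without IWR-1, and at 23374, 37831, 27552, 27996 and 78138 with it. Its line 11 lay apart, whereas the wells of lines 8 and 4 overlapped. The ranges were 1.75 on the log2 scale for PEG10 (limma F test, adjusted p = 3.46e-05) and 1.70 for NNAT (adjusted p = 1.74e-06), both unaltered without line 4. The PEG10 range was 1.04 without line 1, and the NNAT range 0.76 without line 11.

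IGF2R and SNRPN varied least between lines. IGF2R encodes the receptor that takes IGF2 to the lysosome for breakdown and is expressed mainly from the maternal allele in cattle. It was at 9401, 11102, 8182, 5114 and 7212 without IWR-1, against 9422, 10970.3, 8136, 6367 and 6997 with it, in lines 1, 2, 4, 8 and 11. The wells of a line differed by a median of 0.02 on the log2 scale, the smallest value of the 10 members, and a range of 0.95 was called (limma F test, adjusted p = 0.000142) and no wells of neighbouring lines overlapped. Its highest line, line 2, and its lowest, line 8, were not those of IGF2; 9.23% of all tested genes were highest in line 2 and 10.9% lowest in line 8 in both media.

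SNRPN encodes SmN, a protein of the spliceosome, and is expressed from the paternal allele; it has a near relative in SNRPB, with which reads may be shared. It stood at 8300.2, 5585, 4227, 7074 and 4424 without IWR-1, and at 8985, 5974, 3993, 5754 and 3987 with it, in lines 1, 2, 4, 8 and 11. Line 1 was highest in both media, as for 12.2% of all tested genes, whereas it was the lowest line in both media for 6 of the other members, against 11% of all tested genes. No member was highest in line 8 or lowest in line 11 in both media, where 8.82% and 8.27% of all tested genes were. Lines 11 and 4 were lowest and overlapped, as did lines 8 and 2. The range of line means was 1.07 on the log2 scale (limma F test, adjusted p = 5.28e-05), or 0.63 without line 1.

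**Figure D2:**
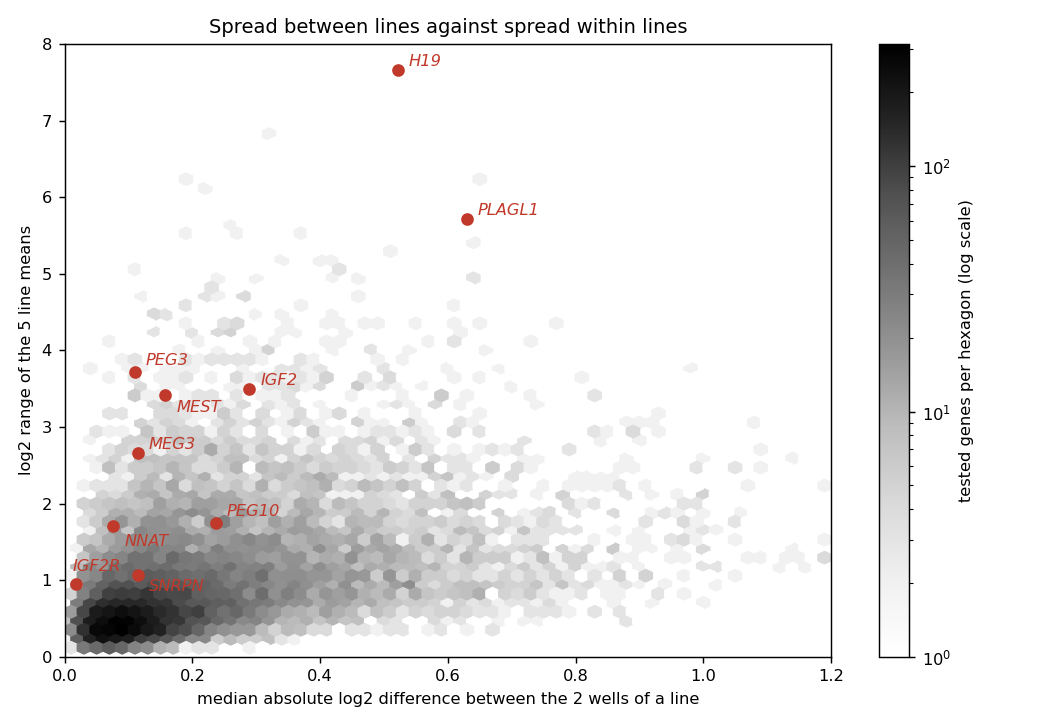
The log2 range of the 5 line means (vertical) against the median absolute log2 difference between the 2 wells of a line (horizontal). Grey hexagons count the 18506 tested genes, of which 145 lie beyond the axes, and red points are the 10 imprinted genes, from IGF2R at 0.95 to H19 at 7.66 on the vertical axis.

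Set beside the whole table, the members' ranges reached from near the middle to above the 99th percentile. Their median range was 3.04 on the log2 scale, against a median of 0.77 over all tested genes; the 95th percentile of all tested genes was 3.14 and the 99th was 5.19. H19 and PLAGL1 lay above that 99th percentile, IGF2, PEG3 and MEST between both percentiles, and IGF2R and SNRPN close to the median. Wells of a line differed by a median of 0.14 over the members and 0.16 over all tested genes. Without line 4 the members' median range was 1.57, against 0.61 over all tested genes, and 9 of 10 members were called, where 48.7% of tested genes were.

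Among the other 4 lines, an order with line 11 highest and line 1 lowest recurred. It was seen in both media for IGF2, MEG3, PEG3, PEG10, MEST and NNAT, 6 of the 10 members, against 7.28% of all tested genes. The same order was seen for 8 of 17 bovine fibroblast and mesenchyme markers and 6 of 33 other imprinted genes, both described below. The reverse order was seen for 0 genes of these 2 lists. SNRPN had the reverse, with line 1 highest and line 11 lowest, which 5.76% of tested genes had. This tally was chosen after the values were seen.

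Line 4 and, less so, line 11 also stood out in the share of feeder RNA and in bovine markers of fibroblasts. The mouse share of recovered reads was 21.2%, 23.2%, 41.4%, 21.5% and 26.6% in lines 1, 2, 4, 8 and 11 without IWR-1, and 23.4%, 27.4%, 42.3%, 25.7% and 33.3% with it. Of all tested genes 19.1% were highest in line 4 in both media, as were 15 of the 17 bovine fibroblast and mesenchyme markers, all tested. Their summed level was 200368 without and 164727 with IWR-1 in line 4, against 13234 to 84326 in the wells of the other lines, and it was lowest in line 1. POSTN was at 0 in 1 library, and no other marker of this list was at 0 in any library.

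The summed level of 9 pluripotency markers, of which POU5F1 and SOX2 mark the stem cells themselves, ran the other way. It was 96861 without and 100623 with IWR-1 in line 4, against 105225 to 192135 in the other lines, and it was highest in line 1. Markers of trophectoderm and hypoblast were uneven, with 3 of 9 trophectoderm markers and 5 of 8 hypoblast and endoderm markers found passing the filter. CDX2 was at 0 in 7 of 10 libraries, GATA4 in 6 and SOX17 in 4, whereas KRT7 had 33 to 2305 reads, TFAP2A 1 to 371 and APOA1 4407 to 12036. The summed hypoblast and endoderm markers were at 6907 to 11653 without IWR-1 and 6128 to 11087 with it. APOA1 made up most of that sum, at a mean of 9005 without and 7225 with IWR-1, whereas GATA4 and SOX17 had at most 2 reads per library. Of 6 neural markers 5 were tested, and all 5 were highest in line 4 in both media, where 19.1% of all tested genes were. In a fit with the ratio of mouse to bovine reads as a covariate, added after the data were seen, 10 of 10 members were called for line (limma adjusted p at most 0.0128), where 34.3% of tested genes were. The sources used here do not give the handling of reads that match the genomes of both species, and the part of feeder RNA or of other cell types in the members' levels was not tested.

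**Figure D3:**
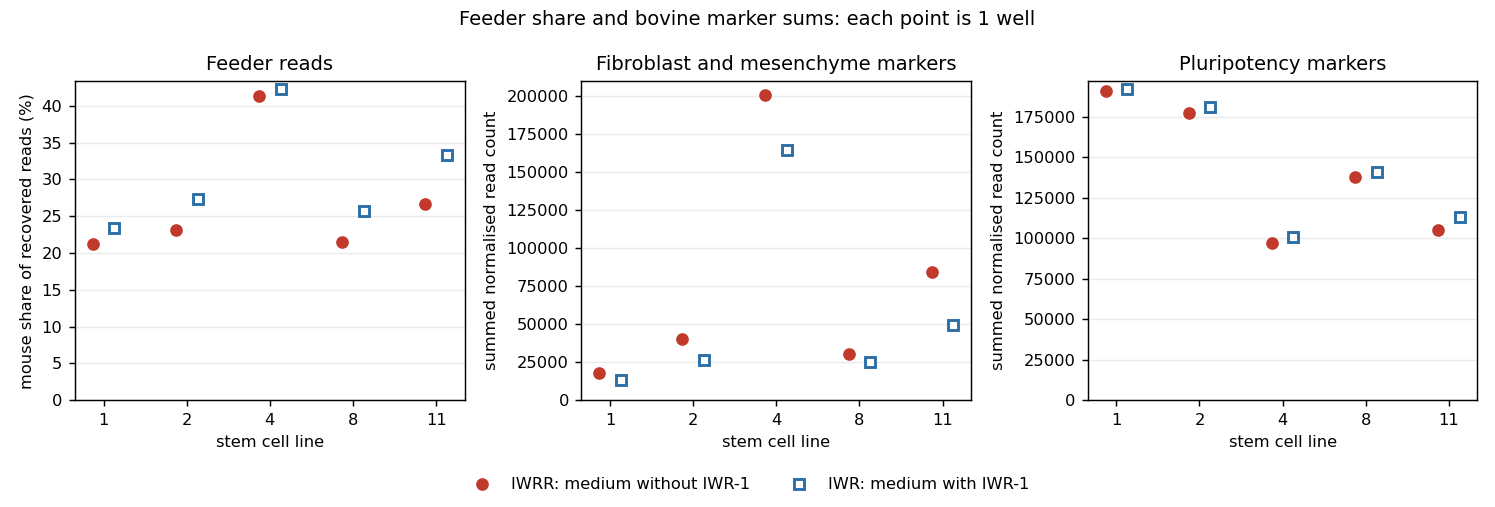
Mouse share of recovered reads in percent (left), and summed normalised read counts of bovine fibroblast and mesenchyme markers (middle) and pluripotency markers (right), by line, with 1 point per well. Line 4 has the highest mouse share (41.4% without and 42.3% with IWR-1) and fibroblast sum, and line 1 the highest pluripotency sum.

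The genes most like each member were found by the root mean square difference between log2 profiles over the 10 wells, each centred on its mean. For PLAGL1 they were TNC, encoding the matrix protein tenascin C, at a difference of 0.43, and TWIST1, a transcription factor of mesenchyme, at 0.53. IGF2 was nearest to the ephrin receptor gene EPHA7 (0.11) and ADGRA2 (0.23), and PEG3 to DTNA, encoding dystrobrevin alpha (0.17), and the homeobox gene MEIS1 (0.26). For H19 they were CHL1, a cell adhesion gene, at 0.56 and GDF10 at 0.66, the largest differences of the 10 members. H19 also had the largest spread of its own, at 2.79 against 2.13 for PLAGL1, so the differences are not compared between members. MEG3 was nearest to RASGEF1B (0.18) and SVIL (0.26), MEST to CTXN3 (0.30) and DMD (0.33), PEG10 to SPRY1 (0.14) and KALRN (0.14), and NNAT to MRC2 (0.15) and UNC5B (0.21). The nearest profiles to IGF2R were those of BEND3 (0.06) and RRP12 (0.08), and to SNRPN those of SDHD and MACROD1 (0.10 each). None of these 20 genes is a member or on the list of other imprinted genes.

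Other imprinted genes were taken from a list of 47 names, with no check that each is imprinted in cattle or in these cells. Of the 47 names, 40 were found and 33 tested. Of these, 26 were called for line, where 66.5% of all tested genes were, and 21 without line 4, where 48.7% were. Their median range was 1.03 on the log2 scale, against 0.77 over all tested genes, and without line 4 it was 0.81, against 0.61. The 5 listed genes of the MEG3 region had a median range of 3.69. DLK1, which encodes a transmembrane relative of Notch ligands and is expressed from the paternal allele, was at 4109, 14699.8, 697, 23689 and 47876 without IWR-1, against 5307, 19792, 1346, 20448.5 and 51831 with it, in lines 1, 2, 4, 8 and 11. Its range was 5.68 on the log2 scale (limma F test, adjusted p = 6.21e-08), or 3.41 without line 4.

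MEG3 and all 5 of its listed neighbours were lowest in line 4 in both media, where 18.4% of all tested genes were. RTL1, a paternally expressed gene derived from a retrotransposon, had a range of 4.54, the deiodinase gene DIO3 of 3.69, and the non-coding RNAs MEG8 and MEG9 of 3.29 and 2.08. Without line 4 these ranges were 2.82 for RTL1, 2.80 for DIO3, 1.62 for MEG8 and 0.98 for MEG9. Line 11 was highest in both media for MEG3, DLK1, RTL1, DIO3 and MEG8; for MEG9 it was highest without IWR-1 only, at 363 against 296 in line 2, while with IWR-1 line 2 was at 461 and line 11 at 451. All 5 neighbours were called for line with and without line 4 (limma F test). By mean level, lines 11, 1 and 4 held the same places for all 6 genes, and lines 2 and 8 changed places between them.

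**Figure D4:**
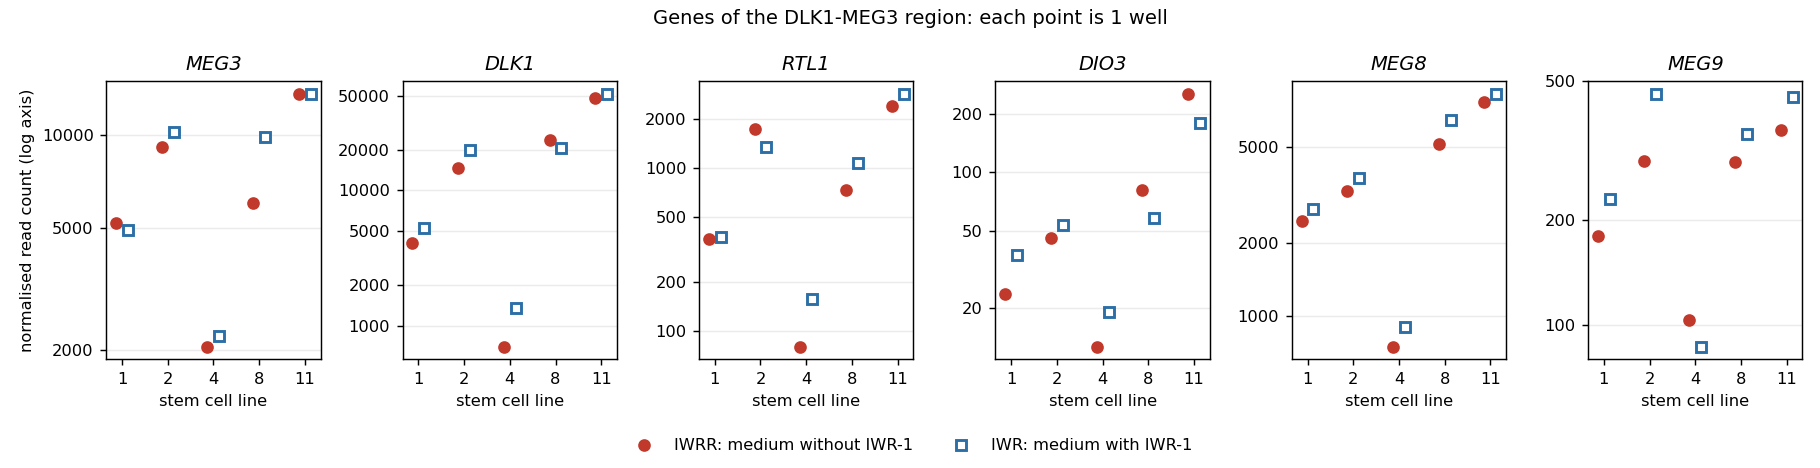
Normalised read counts on log axes of MEG3 and 5 neighbouring imprinted genes by line, with 1 point per well, filled circles for medium without IWR-1 and open squares for medium with it. Each gene is lowest in line 4, for DLK1 at 697 without and 1346 with IWR-1.

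The genes next to the other members did not all share the members' order. Of the 7 other genes tested in the region of H19 and IGF2, 1 was highest in line 4 in both media and 2, OSBPL5 and CD81, were lowest in it. The first was the cell cycle inhibitor gene CDKN1C, which averaged 469.8 ± 312 normalised reads without IWR-1 and 541 ± 455 with it (SD, n = 5 each). SGCE, next to PEG10, was highest in line 4 and lowest in line 2, with a range of 1.17. NDN and MAGEL2, paternally expressed genes of the SNRPN region, were highest in line 2 and lowest in line 11, with ranges of 1.71 and 0.71. AIRN, of the IGF2R region, was lowest in line 8 in both media, as IGF2R was, with a range of 2.16. SLC22A3, of the same region, was lowest in line 1, with a range of 4.11 at 4 to 145 reads per library. PHACTR2, of the PLAGL1 region, was lowest in line 1, as PLAGL1 was, with a range of 0.70. COPG2, which overlaps MEST, and BLCAP, which overlaps NNAT, had ranges of 0.32 and 0.73 (0.12 for BLCAP without line 4), against 3.41 and 1.70 for MEST and NNAT. In the RefSeq gene table of ARS-UCD2.0, AIRN likewise overlaps IGF2R, SNURF overlaps SNRPN, APEG3 overlaps PEG3 and ZC2HC1B overlaps PLAGL1. The sources used here do not say whether counting used strand, so reads of overlapping partners may not be separable.

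The change after IWR-1 withdrawal was small beside these line differences. Within lines, 1 of 10 members rose, 0 fell and 9 were not called; of all tested genes, 0.886% rose and 0.0648% fell. At an unadjusted p under 0.05 there were 3 members, against 10.1% of all tested genes. The members' median log2 fold change was 0.0068, with 5 positive and 5 negative values, and that of all tested genes was -0.0046. These values come from limma with the line as a block, and "rose" and "fell" refer to its adjusted p-values over all tested genes.

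PLAGL1 was the member that rose, and it was higher without IWR-1 in 5 of 5 lines, where 6.2% of all tested genes were. Its change was 0.94, 0.39, 0.33, 0.63 and 1.27 on the log2 scale in lines 1, 2, 4, 8 and 11. The mean log2 fold change was 0.71 ± 0.14 SE, or 1.64-fold (95% interval of the log2 value 0.40 to 1.02; limma adjusted p = 0.0471). Since the groups overlap across lines, at 1298 ± 2419.6 normalised reads without IWR-1 and 994 ± 1949 with it (SD, n = 5 each), the rise is seen within lines only.

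The call for PLAGL1 lay at the threshold. Omitting line 1, 4, 8 or 11 ended it, omitting line 2 did not, and the log2 fold change lay between 0.57 and 0.81 in those 5 fits. The call was also missed with TMM scaling (limma adjusted p = 0.0512), without the filter (0.12) and without the block (1.00); edgeR (adjusted p = 0.0495) and DESeq2 (adjusted p = 6.08e-05) on recovered reads called it. With the mouse to bovine read ratio as a covariate it was at 0.29 and not called (limma adjusted p = 1.00), a fit that called 0 genes in all, with 498 at an unadjusted p under 0.05.

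The share of feeder reads was lower, and the sum of the fibroblast markers higher, without IWR-1 in each of the 5 lines. The mouse share averaged 26.8% ± 8.45 without and 30.4% ± 7.57 with IWR-1 (SD, n = 5 each; exact two-sided sign-flip permutation test, p = 0.0625, the smallest that 5 pairs allow). The summed fibroblast and mesenchyme markers were at 18238 to 200368 without IWR-1 and 13234 to 164727 with it. Of the 17 single markers, 7 were higher without IWR-1 in 5 of 5 lines, against 6.2% of all tested genes. ACTA2 and TAGLN, 2 of the 17, rose, against 0.886% of all tested genes. The other direction was seen in 5 of the 17, which had negative log2 fold changes, such as COL1A2 at -0.30 ± 0.10 SE and DCN at -0.24 ± 0.13, neither called by limma. Of the pluripotency markers 1 of 9, NANOG, rose, and of the neural markers 1 of 5, PAX3, beside the same 0.886%. Their part in the change of PLAGL1 was not tested.

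**Figure D5:**
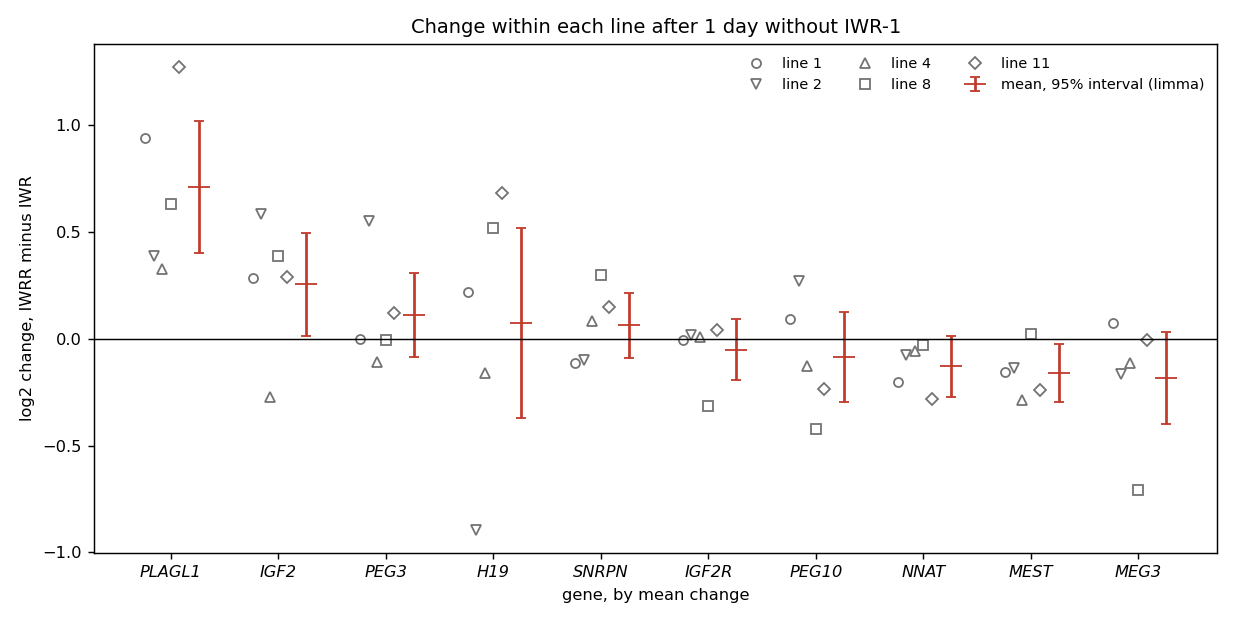
Log2 change, medium without IWR-1 minus medium with it, for each imprinted gene, with open symbols for the 5 lines and red bars for the limma mean and its 95% interval. PLAGL1 lies above 0 in 5 of 5 lines (mean 0.71), whereas the other genes have means between -0.18 and 0.26.

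The other 9 members were not called. IGF2 had a log2 fold change of 0.26 ± 0.11 SE (95% interval 0.01 to 0.50; limma adjusted p = 0.465), with positive values in 4 of 5 lines and -0.27 in line 4; without that line it was 0.39. MEST was at -0.16 ± 0.06 (-0.30 to -0.02; adjusted p = 0.396) with negative values in 4 of 5 lines. NNAT was at -0.13 ± 0.06 (-0.27 to 0.01; adjusted p = 0.56) and was lower in 5 of 5 lines, where 4.92% of all tested genes were. MEG3 was at -0.18 ± 0.10 (-0.40 to 0.03; adjusted p = 0.614), a value that line 8 decides, as it was -0.05 without that line.

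The remaining members had intervals on both sides of 0. H19 was the least precise, at 0.07 ± 0.20 (95% interval -0.37 to 0.52), with changes between -0.89 in line 2, where it had 31 reads without and 58 with IWR-1, and 0.68 in line 11. PEG3 was at 0.11 ± 0.09 (-0.08 to 0.31), or 0.0021 without line 2, and PEG10 at -0.09 ± 0.10 (-0.30 to 0.13). SNRPN was at 0.06 ± 0.07 (-0.09 to 0.22). Without line 8, PEG10 was at -0.00056 and SNRPN at 0.0051. IGF2R had the narrowest of these intervals, at -0.05 ± 0.06 (-0.19 to 0.09); 4 of its lines changed by at most 0.04 and line 8 by -0.32.

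None of the 33 other imprinted genes tested was called for the medium by limma, and 5 had an unadjusted p under 0.05, against 10.1% of all tested genes. DESeq2 called 1, ATP10A, where 358 of all 18506 tested genes rose and 62 fell by that method. ATP10A, a phospholipid flippase gene of the SNRPN region named after its values were seen, had the lowest limma p of the list. It was at 164, 185, 169, 184 and 201 without IWR-1, and at 133, 133, 108, 92.6 and 75.8 with it, in lines 1, 2, 4, 8 and 11, so that the groups did not overlap. Its log2 fold change was 0.76 ± 0.17 SE (limma adjusted p = 0.0725; DESeq2 adjusted p = 0.00562), and with the mouse read ratio as a covariate it was 0.23. It was not called for line (limma F test, adjusted p = 0.731), unlike all 10 members.

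All 5 neighbours of MEG3 had negative log2 fold changes for the medium, as did 9557 of all 18506 tested genes. None of the 5 was called. DLK1 was at -0.33 ± 0.13 SE (limma adjusted p = 0.402), or -0.18 without line 4, and MEG8, named after its values were seen, at -0.21 ± 0.06 (adjusted p = 0.144), with negative values in 5 of 5 lines. The list's median log2 fold change over all 33 genes was 0.0064. Of the list's most abundant members, GNAS, encoding a G protein alpha subunit, was at -0.06 ± 0.06, INPP5F at -0.10 ± 0.06 and MAGEL2 at -0.16 ± 0.06. NAP1L4 (0.05 ± 0.05), CD81 (0.01 ± 0.06), UBE3A (-0.02 ± 0.06) and COPG2 (0.01 ± 0.06) were closer to 0.

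Genes that maintain imprints in the embryo were likewise not called for the medium. Of 10 listed genes, 9 were found and 8 tested, of which limma called 0. At an unadjusted p under 0.05 there were 2, ZFP57 and ARID4A, against 10.1% of all tested genes. ZFP57 was at 0.27 ± 0.09 SE, with positive values in 4 of 5 lines (limma adjusted p = 0.259). ARID4A was at -0.18 ± 0.06, lower in 5 of 5 lines, where 4.92% of all tested genes were (limma adjusted p = 0.297). Both were named after their values were seen. TRIM28, a co-repressor that binds at imprinted control regions, was at 0.0026 ± 0.07 SE, the maintenance methyltransferase gene DNMT1 at 0.05 ± 0.07, its partner UHRF1 at 0.09 ± 0.06 and SMCHD1 at 0.14 ± 0.08 (limma adjusted p between 0.663 and 0.997). For line, 6 of the 8 were called, near the 66.5% of all tested genes. Their median range was 0.50 on the log2 scale, below the 0.77 of all tested genes, while that of the imprinted members was 3.04.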

How the data were processed

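Poly(A) RNA of 10 wells, 5 without IWR-1 and 5 with it, was prepared with NEBNext Ultra reagents, and reads were mapped to the bovine and the mouse genome separately, per the labels' protocols. Tools listed without a role in the submitters' processing notes are featureCounts 1.5.0-p3, StringTie 1.3.3b, HISAT2 2.0.5 and fastp. The deposited signal values per gene are reads divided by a factor per library: dividing by the smallest step gave whole reads for 100% of positive values in every library (tolerance 0.01). Of 27590 bovine gene IDs, 24660 matched a RefSeq gene of ARS-UCD2.0, used for names and neighbours; no coordinate is printed. Mouse gene IDs had no names, and 2 columns of the mouse table that match no sample were not used.

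Genes that reached a value of 10 in 5 or more libraries were tested with limma 3.58.1 (R 4.3.3) on log2(value + 1), with a trend and with the line as a block, as the series' design splits each line over 2 wells. Benjamini-Hochberg adjustment ran over all tested genes, with calls at an adjusted p under 0.05. Deviations of the 2 wells of a line from their group means correlated at 0.819, 0.617, 0.883, 0.646 and 0.782 in lines 1, 2, 4, 8 and 11. Alternatives were other pseudocounts, no filter, TMM scaling, edgeR 4.0.16 and DESeq2 1.42.0 on recovered reads, leaving out each line, no block and a mouse read covariate. The fits were tested on simulated data. The mouse share was tested with an exact permutation test (scipy 1.17.1).

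The members and gene lists were chosen with earlier results of these data known. Named in the text were all members and listed genes called for medium. Also named were up to 8 other imprinted and 4 imprint maintenance genes with the highest mean, and the 2 nearest profiles of each member. ATP10A and the other genes beside the members, and ZFP57 and ARID4A, were added after their values were seen. PAG1 was left out of the trophectoderm markers, since that symbol names an adaptor protein gene. Counting intervals were not used, and library depth limits H19 most.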

Additional observations from a re-analysis of the deposited data

Results flagged for a closer look

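H19 in line 4 lay far from the other 4 wells of its medium, at 8684 without IWR-1 and 9718 with it. PLAGL1 in line 4 did so too, at 5623 without IWR-1 and 4479 with it. The gap to the nearest well took 0.774 and 0.93 of the log2 range of the wells for H19, and 0.738 and 0.753 for PLAGL1, without and with IWR-1. These were 4 of 20 groups of 5 wells examined (10 genes in 2 media), where chance flags about 1 in 20, and the wells of both media come from the same line, so they are not independent. Line 4 also had the highest mouse share and the highest summed fibroblast markers, whose part was not tested.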

How the results depend on the processing

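Both pseudocounts kept the calls of all members. With limma, 164 genes rose and 12 fell after IWR-1 withdrawal; without the filter 51 rose, 2 fell and 0 members were called, and with TMM scaling 0 members were called (PLAGL1 adjusted p = 0.0512). DESeq2 had 358 rise and 62 fall, and called 1 other imprinted gene. Leaving out 1 line gave 31 to 159 genes that rose, 0 to 25 that fell, 0 to 1 members called for medium and 9 to 10 for line, 9017 to 12676 genes called for line, and a mouse share difference of -4.32 to -2.90 percentage points. Without the replicate block, 0 genes rose, 0 fell and 0 members were called (105 genes and 0 members at an unadjusted p under 0.05). With the mouse to bovine read ratio as a covariate and the replicate block, 0 rose, 0 fell and 0 members were called (498 genes and 0 members at an unadjusted p under 0.05), and 6341 genes were called for line, a fit for line added after the data were seen. For the genes called without the covariate, the median standard error was 0.196 in that fit, against 0.0900 without it. The covariate turned the log2 fold change to -0.31 for H19, -0.16 for IGF2, -0.097 for PEG3, 0.024 for PEG10, -0.035 for SNRPN, -0.065 for COPG2, -0.028 for TRIM28 and -0.0083 for DNMT1. Leaving out 1 line turned the sign for H19 (-0.079 to 0.32), IGF2R (-0.074 to 0.016), CD81 (-0.026 to 0.030), UBE3A (-0.082 to 0.0046), COPG2 (-0.046 to 0.051), TRIM28 (-0.028 to 0.037) and DNMT1 (-0.021 to 0.098), none of them called. Beyond what fewer samples or more tested genes do by construction, the cause was not tested. With 5 lines and 1 well per medium and line, small changes of low genes are not detectable. Promoter sequence features were not analysed here.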
